A study of Homo sapiens with 24 samples.

Results

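The 39 HOX cluster genes are the homeobox transcription factor genes of the 4 human HOX clusters, with 11 genes in HOXA on chromosome 7, 10 in HOXB on chromosome 17, 9 in HOXC on chromosome 12 and 9 in HOXD on chromosome 2. They were taken by symbol (HOX, a cluster letter A to D and a number), and all 39 were found among the 19475 genes of the count table. The study sequenced RNA from 24 libraries of human cell lines, 3 labelled CBX7 knock-down and 3 labelled control in each of A549 (lung adenocarcinoma), H1299 (non-small cell lung carcinoma), K562 (erythroleukaemia) and THP-1 (acute monocytic leukaemia). The labels' protocols name lentiviral shCBX7 and shCtrl for the cells and, in another field, siCBX7 for every sample, so the agent is stated in 2 ways, and nothing says whether the 3 libraries of a group came from separate cultures. The p-values below therefore rest on the scatter among these libraries, part or all of which may be technical.

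HOX genes lie in their clusters in the order in which they act along the body axis, from anterior (paralog groups 1 to 4) through central (5 to 8) to posterior (9 to 13). Polycomb complexes, of which CBX7 is a chromodomain subunit that reads trimethylated lysine 27 of histone H3, keep HOX clusters silent outside the domain of a cell's origin, and the clusters are among their best studied targets. HOX proteins bind DNA with TALE partners of the PBX and MEIS families, and several of them are known from leukaemia.

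The targeted gene did not follow the labels. CBX7 was higher in the libraries labelled knockdown than in those labelled control by 8.48-fold in A549, 12.3-fold in H1299, 2.85-fold in K562 and 2.30-fold in THP-1, so every direction below is that of the label and not of CBX7. Library totals ran from 71087000 to 132500000 estimated counts, rounded. Epithelial marker genes were detected in A549, H1299 and K562 and erythroid genes in K562. Monocyte genes were highest in THP-1, where the 8 markers summed to 1446 to 1614 CPM in controls. They summed to 184 to 191 CPM in K562 controls, 79.5 to 82.5 CPM in H1299 controls and 38.0 to 41.9 CPM in A549 controls. The 6 epithelial markers summed to 5662 to 5898 CPM (counts adjusted for library size) in A549 libraries labelled knockdown, against 10545 to 10725 CPM in A549 controls. The 20 fibroblast marker genes summed to 439.8, 714.7 and 743.7 CPM in A549 libraries labelled knockdown, against 246.7, 239.4 and 244.9 CPM in A549 controls, and to 43.1, 39.2 and 90.2 CPM in K562 libraries labelled knockdown, against 15.3, 14.6 and 23.4 CPM in K562 controls. MEOX2 was at 0 in both arms of A549 and K562. In H1299 the fibroblast sum went the other way, with 603 to 621 CPM in libraries labelled knockdown, against 695 to 703 CPM in controls. Single markers there were called in both directions. Of 18 tested, 7 were called higher and 4 lower by the edgeR test described below, against 33.4% and 35.5% of all genes. In THP-1 the fibroblast sum was 111 to 121 CPM with the knockdown label, against 76.1 to 93.9 CPM in controls.

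HOXB carried most HOX signal in A549, H1299 and K562, and HOXA in THP-1. In FPKM, a level per transcript length that allows genes to be compared, the HOXB cluster made up most of the summed HOX signal in 3 lines, with 242.6 ± 8.56 in H1299 libraries labelled knockdown against 317.6 ± 3.81 in H1299 controls, 253.0 ± 2.65 in K562 libraries labelled knockdown against 231.7 ± 2.51 in K562 controls, and 67.2 ± 1.99 in A549 libraries labelled knockdown against 64.7 ± 0.82 in A549 controls (SD, n = 3 each). THP-1 instead used HOXA, with a sum of 106.2 ± 7.89 FPKM in libraries labelled knockdown and 92.9 ± 1.504 FPKM in controls, which was 93.4% and 93.0% of all its HOX signal. In H1299 the FPKM of all genes was also lower with the knockdown label, with a mean sum of 348578 against 432068 in controls. Members with at least 1 FPKM in all 3 libraries of the group numbered 25 (labelled knockdown) and 24 (control) in A549, 24 and 23 in H1299, 13 and 13 in K562, and 9 and 9 in THP-1. HOXB1 and HOXD12 were too low to be tested in any line, and in THP-1 the 9 HOXD genes were at 0 in every library except HOXD13 in 1 labelled knockdown.

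The highest members in control libraries were posterior HOXA genes in THP-1 and HOXB genes elsewhere. In THP-1, HOXA9, a leukaemia-associated regulator of blood stem cells, had 31.2, 40.8 and 32.9 FPKM in libraries labelled knockdown, against 33.1, 31.8 and 32.3 FPKM in controls. HOXA10, its neighbour and also known from leukaemia, had 23.4, 28.5 and 22.9 FPKM in libraries labelled knockdown, against 21.6, 22.1 and 22.3 FPKM in controls. HOXA13, needed for digit and genital development, had 22.3, 19.9 and 21.8 FPKM in libraries labelled knockdown, against 19.5, 18.8 and 20.2 FPKM in controls. The 2 arms overlapped for HOXA9 and HOXA13. In H1299, HOXB2, a hindbrain gene, led with 63.7, 62.0 and 68.5 FPKM in libraries labelled knockdown, against 103.8, 102.9 and 98.6 FPKM in controls. HOXB7, often overexpressed in carcinomas, had 64.6, 69.0 and 70.6 FPKM there in libraries labelled knockdown, against 84.4, 91.1 and 89.8 FPKM in controls. HOXB4, which expands blood stem cells when overexpressed, had 52.0, 47.9 and 51.3 FPKM in H1299 libraries labelled knockdown, against 64.6, 64.3 and 61.9 FPKM in controls. All 3 were lower in FPKM with the knockdown label in each library, as was the FPKM sum of all genes. On TPM, which rescales each library to a fixed sum, HOXB2 was called lower, by -0.33 (limma on log2(TPM + 1)). HOXB7 and HOXB4 changed by -0.051 and -0.0096 on that scale and were not called. In K562, HOXB9 had 117.1, 114.6 and 108.6 FPKM in libraries labelled knockdown, against 65.1, 66.8 and 67.6 FPKM in controls. HOXB2 and HOXB4 followed there, at 39.4 ± 0.91 and 41.1 ± 1.37 FPKM in libraries labelled knockdown and 57.6 ± 1.75 and 46.9 ± 1.60 FPKM in controls (SD, n = 3 each). In A549 HOXB7 led with 17.8, 19.8 and 20.1 FPKM in libraries labelled knockdown, against 23.7, 23.9 and 22.8 FPKM in controls, followed in controls by HOXB6 with 10.8 ± 0.62 FPKM and HOXB3 with 6.99 ± 0.09 FPKM, for which the libraries labelled knockdown had 10.1 ± 0.88 and 7.49 ± 0.60 FPKM.

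**Figure D1:**
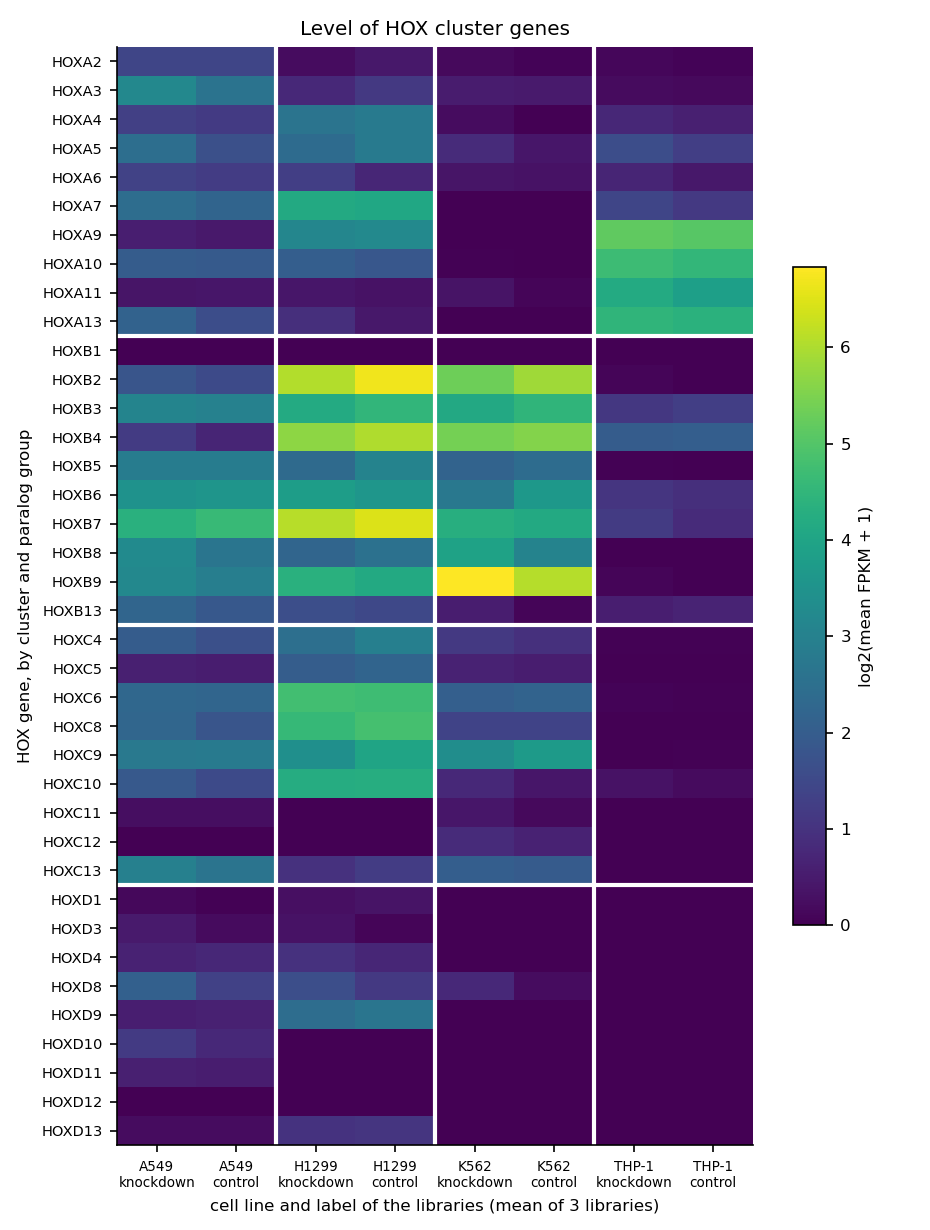
Level of each HOX gene shown (rows, by cluster and paralog group) in the 8 groups of 3 libraries (columns, labelled knockdown left of control for each line), as log2 of the mean FPKM plus 1. The posterior HOXA genes stand out in THP-1, HOXB genes in H1299 and K562, and HOXD is dark in THP-1 and nearly so in K562.

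Among the 12 control libraries, all 37 members that could be tested differed among the 4 lines (edgeR quasi-likelihood F test, adjusted p under 0.05), as did 96.1% of all 16305 genes tested, so the count itself does not set the HOX genes apart. Ordered by control FPKM, 15 members were highest in H1299 and called above the next line, 6 were so in A549, 4 in K562 and 4 in THP-1. The 4 of THP-1 were HOXA9, HOXA10, HOXA11 and HOXA13, the posterior end of that cluster. Those of K562 included HOXB8, HOXB9 and HOXC12. For HOXB3 the H1299 and K562 controls did not differ past the threshold, and for HOXB5 neither did H1299 and A549. HOXB6 gave no call between K562 and H1299 or between H1299 and A549, and HOXA6 gave none between any neighbours in its order. Of 37 members, A549 controls were higher than H1299 controls in 10 and lower in 18 (78% of all genes called in either direction), higher than K562 in 25 and lower in 8 (80.1%), and higher than THP-1 in 30 and lower in 5 (80.2%). H1299 controls were higher than K562 in 27 and lower in 6 (78.9%), and higher than THP-1 in 27 and lower in 4 (80.9%). K562 controls were higher than THP-1 in 20 and lower in 8 (77.4%). Line and library set cannot be told apart in these comparisons.

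Some members cannot be counted independently of their neighbours. In the RefSeq annotation of GRCh38.p14, 11 of 39 members have a gene span that overlaps another member's, and HOXC4, HOXC5 and HOXC6 begin at one shared start. No label says that reads were assigned by strand, so those of a HOX gene and of an antisense RNA of its cluster cannot be told apart. RefSeq promoter sequence (GRCh38.p14) was found for 20 of the 39 members. Their 250 bases before the start held a median of 20.5 CpG dinucleotides (lowest 4, highest 40), against 11 over 27305 promoters of the same length, at a GC content of 59% against 58%. The letters CCAAT, searched on both strands, were found in 17 of the 20 and in 33.0% of all promoters, and TGATNNAT, also on both strands, in 3 of the 20 and in 6.69% of all. HOXC4 and HOXC5 have the same 250 bases, which hold CCAAT and enter these values once for each gene. Shown here are the 250 upstream bases of 4 starts whose genes recur in the results, with CpG dinucleotides in capitals. HOXA4 (chr7:27130758-27131007, minus strand) was called lower on counts in H1299 and higher in K562, where no control had more than 4 counts. HOXA13 (chr7:27200092-27200341, minus strand) was called higher in both lung lines. HOXC4 and HOXC5 (chr12:54016638-54016887, plus strand) were called lower on counts in H1299, and HOXD8 (chr2:176129455-176129704, plus strand) was called higher in A549 and K562.
HOXA4: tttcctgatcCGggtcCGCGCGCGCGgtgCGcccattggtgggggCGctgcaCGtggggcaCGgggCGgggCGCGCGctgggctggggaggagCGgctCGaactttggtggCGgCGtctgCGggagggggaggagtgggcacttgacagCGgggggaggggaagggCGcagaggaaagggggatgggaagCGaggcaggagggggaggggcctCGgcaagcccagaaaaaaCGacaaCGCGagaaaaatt
HOXA13: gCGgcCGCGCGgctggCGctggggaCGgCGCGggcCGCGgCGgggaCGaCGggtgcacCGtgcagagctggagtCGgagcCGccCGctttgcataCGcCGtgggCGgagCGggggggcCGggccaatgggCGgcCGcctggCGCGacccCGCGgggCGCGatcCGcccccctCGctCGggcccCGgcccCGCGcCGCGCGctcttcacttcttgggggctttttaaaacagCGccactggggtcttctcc
HOXC4 and HOXC5: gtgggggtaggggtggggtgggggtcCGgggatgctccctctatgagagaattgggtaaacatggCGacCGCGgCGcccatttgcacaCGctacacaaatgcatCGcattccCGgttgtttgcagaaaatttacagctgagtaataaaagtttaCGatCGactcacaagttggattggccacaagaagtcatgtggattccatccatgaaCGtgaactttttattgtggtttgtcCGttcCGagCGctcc
HOXD8: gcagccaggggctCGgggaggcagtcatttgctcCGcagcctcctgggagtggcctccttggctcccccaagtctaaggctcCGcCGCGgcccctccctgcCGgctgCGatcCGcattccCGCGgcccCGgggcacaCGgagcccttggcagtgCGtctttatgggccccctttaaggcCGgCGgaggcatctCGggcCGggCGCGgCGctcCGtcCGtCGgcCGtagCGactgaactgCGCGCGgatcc

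A member is called below where the edgeR quasi-likelihood test between the 2 labels of a line gave an adjusted p under 0.05 over all genes tested in that line. Fold changes are given as log2 of knockdown label over control label ± SE, from 3 libraries in each group, and CPM values are scaled by library size and TMM factor.

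In A549, more HOX genes were called higher than lower with the knockdown label. Of 36 members tested, 14 were called higher, 1 was called lower and 21 were not called. Over all 14980 genes tested, 27.2% were called higher and 28.4% lower, so the HOX share called higher (38.9%) was above the background and the share called lower (2.78%) below it. The median log2 fold change of the 36 was 0.24, against 0.01 for all genes. The members called higher came from all 4 clusters (3 HOXA, 4 HOXB, 4 HOXC and 3 HOXD) and from anterior, central and posterior positions alike (3 of 11, 5 of 11 and 6 of 14 tested).

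In the HOXA cluster of A549, 3 genes rose. HOXA5, needed for lung development in mice, had 8.33, 7.06 and 7.48 CPM in the libraries labelled knockdown, against 3.13, 4.04 and 4.45 CPM in those labelled control (log2 fold change 0.98 ± 0.14, adjusted p = 7.75e-05). HOXA13 had 8.58, 8.48 and 9.34 CPM with the knockdown label, against 5.82, 4.53 and 6.03 CPM with the control label (log2 fold change 0.69 ± 0.12, adjusted p = 0.000364). HOXA7 had 9.02, 8.59 and 9.75 CPM in labelled-knockdown libraries, against 7.35, 7.78 and 7.81 CPM in labelled controls (log2 fold change 0.25 ± 0.09, adjusted p = 0.0307). The arms of all 3 were apart, by the narrowest margin for HOXA7. HOXA3, which patterns the pharyngeal arches, had 30.9, 25.9 and 28.2 CPM in libraries labelled knockdown, against 23.7, 8.82 and 23.8 CPM in controls. Its control replicate 2 was far below the other two controls, and no call was made (adjusted p = 0.327).

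HOXB gave the only A549 member that fell. HOXB7, the highest HOX gene of this line, had 24.5, 27.3 and 27.6 CPM in the libraries labelled knockdown, against 34.4, 34.6 and 32.8 CPM in those labelled control (log2 fold change -0.36 ± 0.06, adjusted p = 0.000278). HOXB8, which blocks myeloid differentiation when overexpressed, its neighbour in the cluster, rose, with 15.6, 15.7 and 16.2 CPM with the knockdown label, against 10.5, 9.77 and 10.7 CPM with the control label (log2 fold change 0.62 ± 0.07, adjusted p = 9.38e-06). HOXB4 had 2.95, 2.31 and 2.51 CPM in labelled-knockdown libraries, against 1.3, 1.43 and 1.34 CPM in labelled controls (log2 fold change 0.93 ± 0.19, adjusted p = 0.00135). None of these 3 genes overlapped between the arms. HOXB13, a prostate-lineage gene, had 12, 11.3 and 10.3 CPM in the libraries labelled knockdown, against 8.21, 8.07 and 9.57 CPM in those labelled control (log2 fold change 0.38 ± 0.10, adjusted p = 0.00516). HOXB9, a thoracic patterning gene, had 25, 20.6 and 20.3 CPM with the knockdown label, against 18.2, 19.7 and 18.5 CPM with the control label (log2 fold change 0.22 ± 0.08, adjusted p = 0.034). HOXB9 showed the smallest gap, with labelled-knockdown replicate 1 well above the other two.

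In HOXC, HOXC8 and HOXC13 rose most clearly. HOXC8, another thoracic gene, had 8.88, 8.87 and 8.52 CPM in the libraries labelled knockdown, against 6.72, 6.05 and 5.4 CPM in those labelled control (log2 fold change 0.53 ± 0.10, adjusted p = 0.000879). HOXC13, which drives hair keratin genes, had 16.4, 17 and 16.4 CPM with the knockdown label, against 13.8, 12.9 and 13.3 CPM with the control label (log2 fold change 0.32 ± 0.07, adjusted p = 0.00116). HOXC10, a gene of the lumbar and hindlimb region, had 5.45, 4.8 and 6.14 CPM in labelled-knockdown libraries, against 4.27, 4.38 and 3.07 CPM in labelled controls (log2 fold change 0.48 ± 0.16, adjusted p = 0.0211). HOXC4 had 8.02, 5.98 and 6.94 CPM in the libraries labelled knockdown, against 5.49, 5.94 and 4.98 CPM in those labelled control (log2 fold change 0.35 ± 0.13, adjusted p = 0.0344), with labelled-knockdown replicate 2 just above the highest control. In HOXD, HOXD8 had 6.87, 12 and 7.26 CPM with the knockdown label, against 4.21, 3.91 and 4.41 CPM with the control label (log2 fold change 1.06 ± 0.22, adjusted p = 0.00427), and its labelled-knockdown replicate 2 stood above the other two. HOXD10, a limb gene, had 2.59, 1.71 and 2.5 CPM in labelled-knockdown libraries, against 1.44, 1.5 and 1.32 CPM in labelled controls (log2 fold change 0.67 ± 0.22, adjusted p = 0.0204). HOXD3, which had means under 1 CPM, was also called higher (log2 fold change 1.42 ± 0.53, adjusted p = 0.0365).

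The fibroblast markers given above moved in the same direction in A549, where 14 of 17 tested were called higher and none lower; COL1A2 had 13.5, 72.9 and 83.2 CPM in libraries labelled knockdown, against 0, 0.050 and 0 CPM in controls. The epithelial markers had 2 of 5 tested called higher and 3 lower. The part of these markers in the HOX calls was not tested. In one fit of all 24 libraries, 6 members were called higher in A549, 5 of them among the 14. Without labelled-knockdown replicate 3, 9 members were called higher, and HOXA7, HOXC4, HOXC10, HOXD3 and HOXD10 lost their call.

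**Figure D2:**
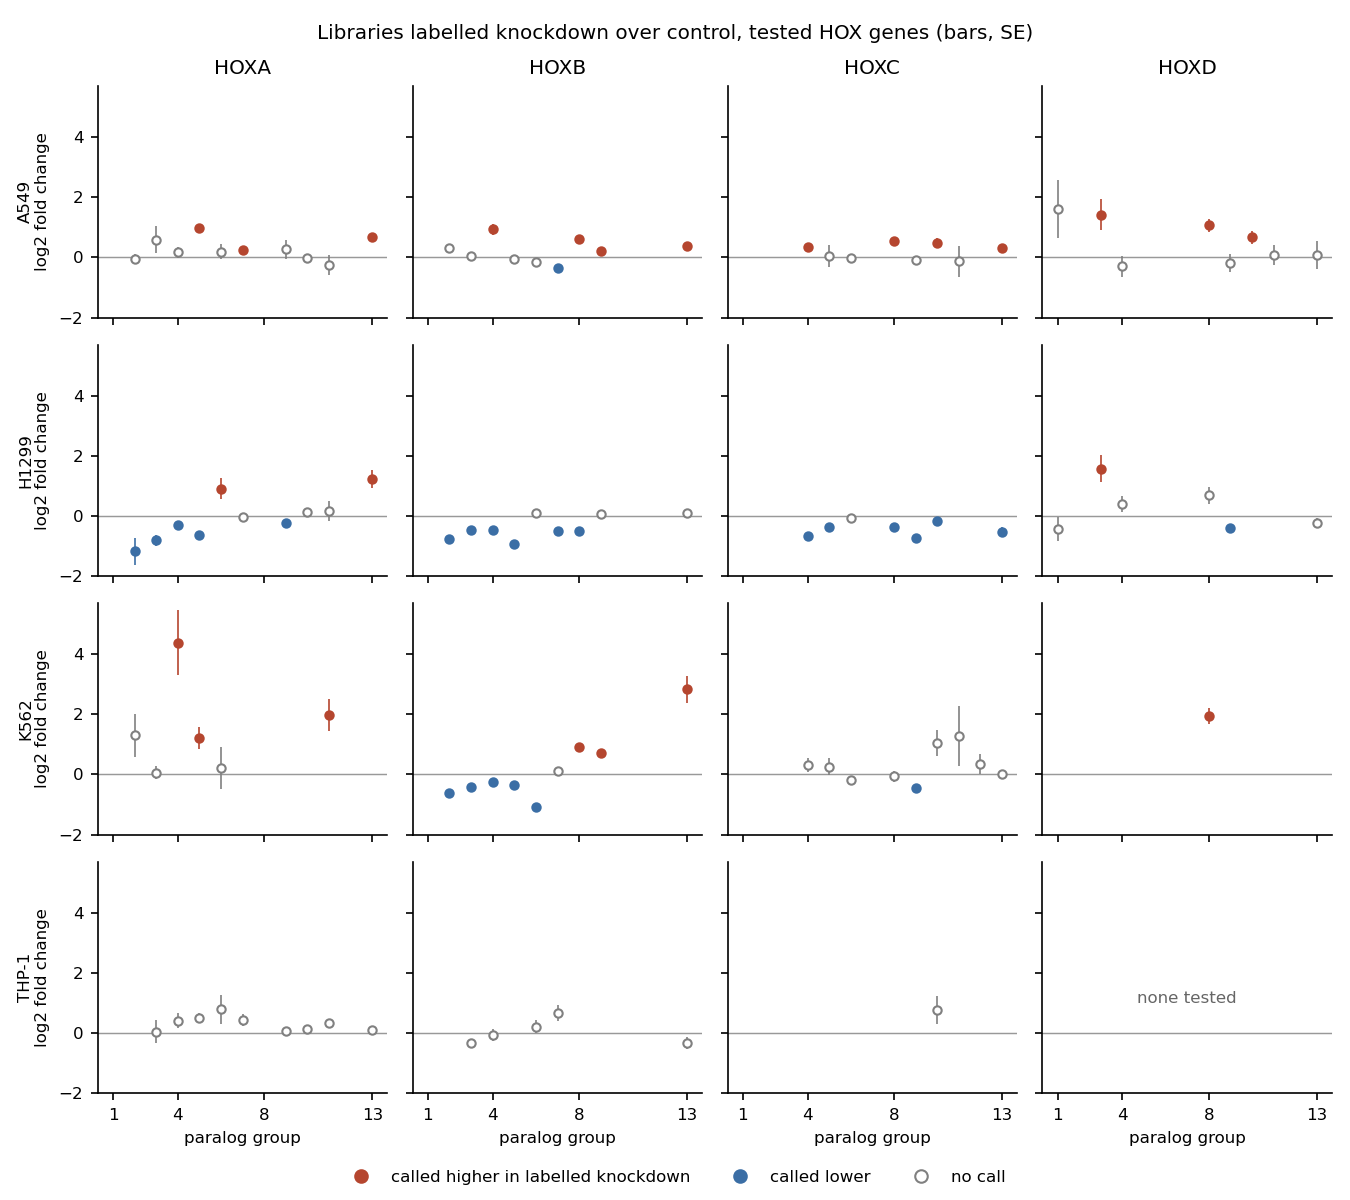
Log2 fold change of libraries labelled knockdown over control with its SE (y axis) for each tested HOX gene shown, by paralog group from 1 to 13 (x axis), with a row for each line and a column for each cluster. In K562 the HOXB row runs from lower at groups 2 to 6 to higher at groups 8, 9 and 13, and THP-1 has open points only; the K562 point of HOXA4 rests on 4 counts in all 3 controls.

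In H1299, more HOX genes were called lower than higher with the knockdown label on the count scale. Of 33 members tested, 18 were called lower, 4 higher and 11 not called. Over all 14621 genes tested, 35.5% were called lower and 33.4% higher, against 54.5% and 12.1% of the HOX genes, and the HOX median log2 fold change was -0.30, against -0.0014 for all genes. This direction depended on the scaling: on log2(TPM + 1) with limma, 14 members were called higher and 3 lower, and the median of all genes was 0.38 on that scale (61.8% of genes called higher, 18.1% lower). Relative to the median of all genes the members were low on both scales, with 22 of 33 below it on counts and 19 of 29 below it on TPM, where the HOX median was 0.14. In one fit of all 24 libraries, 9 members were called lower on counts. The 6 epithelial markers summed to 741 to 761 CPM in H1299 libraries labelled knockdown, against 1569 to 1629 CPM in H1299 controls, and 2 of 4 tested were called lower. Their part in the HOX values was not tested.

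HOXB2, HOXB5 and HOXC9 were lower on both scales. HOXB2 had 101, 98.1 and 108 CPM in the libraries labelled knockdown, against 179, 179 and 170.2 CPM in those labelled control (log2 fold change -0.78 ± 0.04, adjusted p = 8.52e-09). HOXB5 had 7.15, 6.84 and 8.46 CPM with the knockdown label, against 14.2, 15.8 and 13.4 CPM with the control label (log2 fold change -0.95 ± 0.10, adjusted p = 3.29e-06). HOXC9 had 15.1, 13.6 and 14.5 CPM in labelled-knockdown libraries, against 22.8, 25.1 and 24.8 CPM in labelled controls (log2 fold change -0.75 ± 0.07, adjusted p = 1.02e-06). On log2(TPM + 1), HOXB2 changed by -0.33, HOXB5 by -0.46 and HOXC9 by -0.29. HOXA6 and HOXA13 were higher on both scales. HOXA13 had 2.37, 2.39 and 2.03 CPM in the libraries labelled knockdown, against 1.1, 0.512 and 1.29 CPM in those labelled control (log2 fold change 1.22 ± 0.30, adjusted p = 0.00381). HOXA6 had 1.28, 0.899 and 1.13 CPM in labelled-knockdown libraries, against 0.658, 0.321 and 0.785 CPM in labelled controls (log2 fold change 0.91 ± 0.36, adjusted p = 0.0412). On log2(TPM + 1), HOXA13 changed by 0.96 and HOXA6 by 0.95. HOXD3, also called higher on counts, stayed under 1 CPM (log2 fold change 1.58 ± 0.46, adjusted p = 0.00959).

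A further 14 members above 1 CPM were called lower on counts and not on TPM. On log2(TPM + 1), 3 of these were called in the opposite direction, HOXA9 by 0.21, HOXC8 by 0.091 and HOXC10 by 0.29 (limma, adjusted p = 0.00205, 0.0271 and 0.000307). In HOXB, HOXB3 had 67.1, 68 and 68.5 CPM in the libraries labelled knockdown, against 98, 89.3 and 94.9 CPM in those labelled control (log2 fold change -0.47 ± 0.04). HOXB4 had 105, 96.2 and 103 CPM with the knockdown label, against 141, 142 and 136 CPM with the control label (log2 fold change -0.46 ± 0.04). HOXB7 had 87.2, 93.1 and 95.4 CPM in labelled-knockdown libraries, against 124, 135 and 132 CPM in labelled controls (log2 fold change -0.50 ± 0.04). All 3 are abundant in this line, and their levels were 0.722, 0.726 and 0.705 times those of the controls. HOXB8, at lower levels, had 5.99, 7.14 and 6.91 CPM in the libraries labelled knockdown, against 9.86, 10.01 and 8.59 CPM in those labelled control (log2 fold change -0.51 ± 0.10). HOXB6, HOXB9 and HOXB13 were not called on counts, with log2 fold changes of 0.09 ± 0.07, 0.07 ± 0.05 and 0.09 ± 0.15, and were called higher on log2(TPM + 1), by 0.53, 0.51 and 0.43.

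In HOXA, HOXA3 had 2.04, 2.54 and 3 CPM in the libraries labelled knockdown, against 4.59, 5.17 and 3.59 CPM in those labelled control (log2 fold change -0.81 ± 0.18). HOXA4 had 9.25, 7.48 and 10.1 CPM with the knockdown label, against 11.4, 11 and 10.6 CPM with the control label (log2 fold change -0.30 ± 0.11). HOXA5 had 7.84, 6.96 and 5.87 CPM in labelled-knockdown libraries, against 9.87, 11.2 and 10.8 CPM in labelled controls (log2 fold change -0.62 ± 0.11). The arms were closest for HOXA4, where labelled-knockdown replicate 3 nearly reached the lowest control. HOXA9 had 15.6, 15.5 and 16.1 CPM in the libraries labelled knockdown, against 18.7, 18.6 and 17.8 CPM in those labelled control (log2 fold change -0.23 ± 0.06). HOXA7, the highest HOXA gene of H1299, gave no call on counts (-0.04 ± 0.05) and was called higher on log2(TPM + 1), by 0.40. HOXA2 was called lower at levels under 1 CPM (-1.17 ± 0.45).

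In HOXC, HOXC4 had 11.2, 9.16 and 11.7 CPM in the libraries labelled knockdown, against 15.4, 16.6 and 18.9 CPM in those labelled control (log2 fold change -0.67 ± 0.11). HOXC5, which shares its start, had 5.55, 4.95 and 4.2 CPM with the knockdown label, against 6.29, 6.33 and 6.18 CPM with the control label (log2 fold change -0.36 ± 0.12). HOXC8 had 51.1, 53.2 and 52.4 CPM in labelled-knockdown libraries, against 67, 67.7 and 66.4 CPM in labelled controls (log2 fold change -0.36 ± 0.04). All 3 were below every control library. HOXC10 had 33, 34.5 and 35.7 CPM in the libraries labelled knockdown, against 39.2, 38.6 and 37 CPM in those labelled control (log2 fold change -0.16 ± 0.05). HOXC13 had 2.1, 2.42 and 2.44 CPM with the knockdown label, against 2.8, 3.66 and 3.69 CPM with the control label (log2 fold change -0.54 ± 0.16). HOXC6, which shares that start as well, gave no call on counts (-0.07 ± 0.04) and was called higher on log2(TPM + 1), by 0.36. In HOXD, HOXD9, another limb gene and the highest HOXD gene of this line, had 8.36, 8.14 and 8.25 CPM in labelled-knockdown libraries, against 10.1, 11.7 and 10.8 CPM in labelled controls (log2 fold change -0.40 ± 0.08). For these 14 members the adjusted p on counts lay between 4.97e-07 (HOXB4) and 0.0262 (HOXA4).

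**Figure D3:**
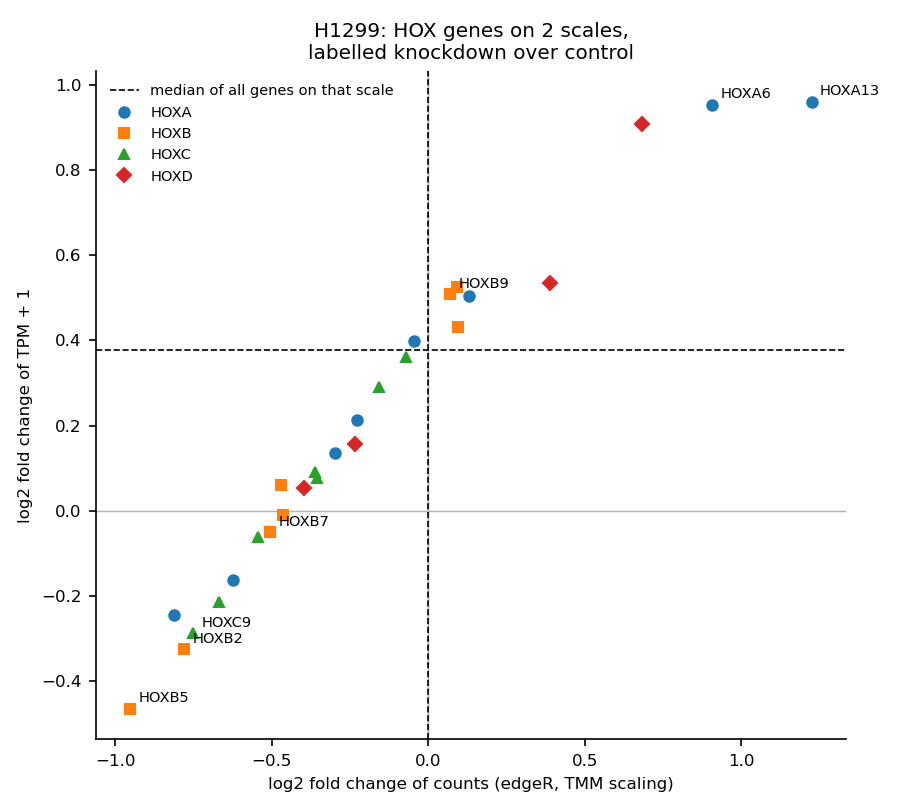
Log2 fold change of libraries labelled knockdown over control in H1299 for the HOX genes shown, tested on both scales, from counts (x axis, edgeR) and from TPM + 1 (y axis, limma); dashed lines mark the median of all genes on each scale. The order of the genes is alike on both axes, while the dashed median sits near 0 on the x axis and at 0.38 on the y axis.

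The fold change of a gene in H1299 also moved with transcript length. Across the genes other than HOX with a length in GENCODE, Spearman's rho between length and log2 fold change was 0.57 in H1299, against 0.09 in A549, 0.01 in K562 and -0.09 in THP-1, as a description over genes that share their libraries. HOX transcripts are short, with a median of 1975 bases among the 33 members tested in H1299, against 3226.5 bases for the other genes. With the genes split by length into 5 equal groups, the median log2 fold change in the shortest group was -0.51 for 12 HOX genes and -0.53 for the others, and in the next group it was -0.19 for 16 HOX genes and -0.28 for the others. In the third group it was -0.27 for 4 HOX genes and -0.03 for the others, and in the fourth the 1 HOX gene had 1.22, against 0.28 for the others. Each group holds under 20 HOX genes.

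**Figure D4:**
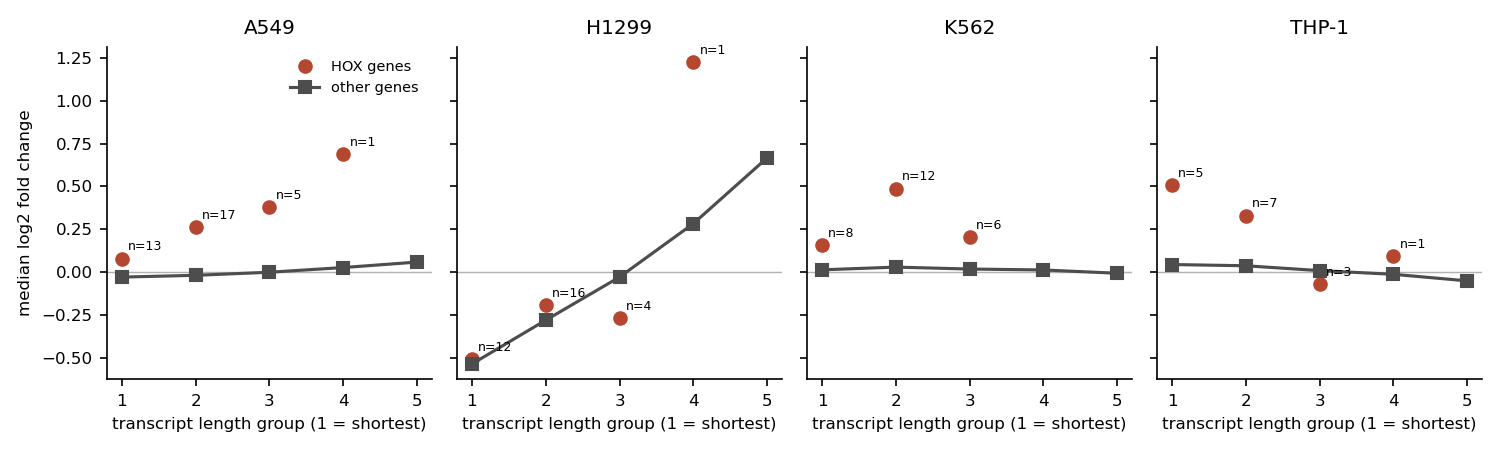
Median log2 fold change of libraries labelled knockdown over control (y axis) in 5 equal groups of genes by transcript length (x axis, shortest first), for HOX genes (circles, with their number) and other genes (squares). In H1299 the other genes climb from -0.53 to 0.67 and the HOX circles of the first 2 groups lie within 0.1 of them, while those of the next 2, with 4 genes and 1 gene, lie farther away.

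In K562 the direction of the HOXB calls changed along the cluster. HOXB2 to HOXB6 were all called lower, HOXB7 was not called, and HOXB8, HOXB9 and HOXB13 were all called higher. The change fell inside the central class, whose 4 members had 1 call higher, 2 lower and 1 not called. In the whole set, 7 of 26 members tested were called higher and 6 lower, close to the 28.9% and 27.5% of all 13876 genes, so neither count sets the HOX genes apart. The median log2 fold change was 0.24, against 0.01 for all genes.

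Among the members called lower, HOXB2 had 63.8, 65.8 and 62.4 CPM in the libraries labelled knockdown, against 96.7, 94.9 and 100.5 CPM in those labelled control (log2 fold change -0.61 ± 0.04, adjusted p = 1.66e-06). HOXB3 had 64.4, 65.5 and 71.5 CPM with the knockdown label, against 90.2, 86.3 and 90.3 CPM with the control label (log2 fold change -0.41 ± 0.05, adjusted p = 7.58e-05). HOXB4 had 82.4, 84.9 and 87.2 CPM in labelled-knockdown libraries, against 105, 98.1 and 98.9 CPM in labelled controls (log2 fold change -0.25 ± 0.04, adjusted p = 0.000805). The fall was smallest for HOXB4 of the 3. HOXB5 had 7.24, 5.96 and 6.28 CPM in the libraries labelled knockdown, against 8.2, 7.97 and 8.76 CPM in those labelled control (log2 fold change -0.36 ± 0.11, adjusted p = 0.0187). HOXB6, expressed in erythroid progenitors, had 9.52, 9.7 and 9.44 CPM with the knockdown label, against 20.3, 20.2 and 20.1 CPM with the control label (log2 fold change -1.08 ± 0.07, adjusted p = 4.79e-07), the largest fall of any called HOX gene in this line. HOXB7 had 24.9, 26.2 and 26.5 CPM in labelled-knockdown libraries, against 25.5, 24.2 and 22.4 CPM in labelled controls (log2 fold change 0.10 ± 0.07, adjusted p = 0.2), and its arms overlapped.

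Among the members called higher, HOXB8 had 27.7, 26 and 25.4 CPM in the libraries labelled knockdown, against 14.1, 13.8 and 14.2 CPM in those labelled control (log2 fold change 0.91 ± 0.06, adjusted p = 1.07e-06). HOXB9, the highest HOX gene of K562, had 322, 315 and 296 CPM with the knockdown label, against 186, 190.2 and 192 CPM with the control label (log2 fold change 0.71 ± 0.04, adjusted p = 3.3e-07). HOXB13, a gene of low level here, had 1.3, 1.49 and 1.39 CPM in labelled-knockdown libraries, against 0.313, 0.089 and 0.176 CPM in labelled controls (log2 fold change 2.83 ± 0.45, adjusted p = 0.000393). All 3 labelled-knockdown values of each gene lay above all 3 controls. Since HOXB3 overlaps HOXB4 in the annotation, reads of the 2 genes could be shared between them.

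**Figure D5:**
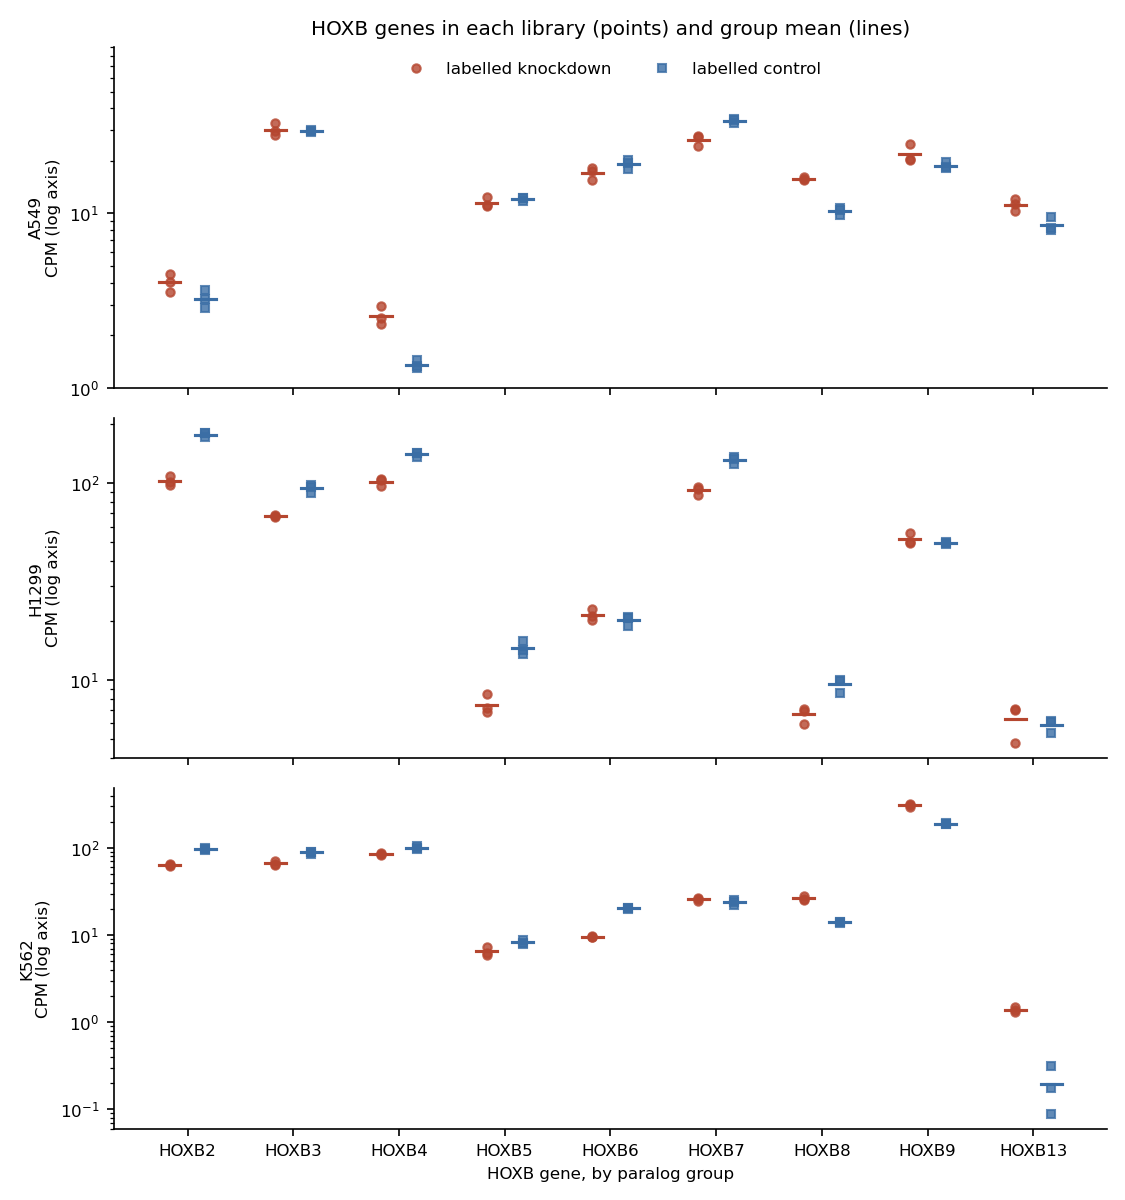
CPM of the 9 HOXB genes other than HOXB1 in each library (points) with the group mean (lines), in A549, H1299 and K562, on a log axis, with the libraries labelled knockdown left of the controls. In K562 the red points lie below the blue for HOXB2 to HOXB6 and above for HOXB8, HOXB9 and HOXB13, while in H1299 HOXB9 overlaps.

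Outside HOXB, K562 used few HOX genes. HOXC9 fell, with 14.8, 14 and 14.1 CPM in the libraries labelled knockdown, against 20.5, 17.1 and 20.7 CPM in those labelled control (log2 fold change -0.44 ± 0.08, adjusted p = 0.0012). HOXD8, the 1 HOXD gene tested, rose with 1.62, 2.15 and 2.06 CPM with the knockdown label, against 0.591, 0.504 and 0.407 CPM with the control label (log2 fold change 1.95 ± 0.27, adjusted p = 0.000155). HOXA5 had 1.69, 1.31 and 1.06 CPM in labelled-knockdown libraries, against 0.842, 0.376 and 0.515 CPM in labelled controls (log2 fold change 1.22 ± 0.37, adjusted p = 0.0161). The 3 genes were apart between the arms. HOXA11 stayed near or under 1 CPM and was called higher (1.97 ± 0.53). HOXA4 had 31, 27 and 25 estimated counts in libraries labelled knockdown, against 0, 4 and 0 counts in controls, and was called higher (adjusted p = 0.00593). With counts divided by 4, HOXA4 and HOXA11 were no longer among the members called higher. HOXC6 and HOXC13, also above 7 CPM, were not called, with log2 fold changes of -0.18 ± 0.10 and 0.03 ± 0.09. On log2(FPKM + 1) with limma, HOXA4, HOXA5, HOXA11, HOXB13 and HOXD8 did not reach 1 FPKM in 3 libraries and were not tested, and with no such filter all 7 were called higher. In one fit of all 24 libraries 3 members were called lower, and HOXB4, HOXB5 and HOXC9 gave no call.

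Other marker genes moved with the label in K562 too. Of 13 fibroblast markers tested, 9 were called higher and none lower, with FAP, PRRX1, TWIST2 and MEOX2 at 0 in all controls and POSTN, TWIST2 and MEOX2 at 0 in all labelled knockdowns. The 7 erythroid markers summed to 3448 to 3813 CPM in libraries labelled knockdown, against 2015 to 2206 CPM in controls, and 6 of 7 were called higher. The 6 epithelial markers summed to 499 to 527 CPM in libraries labelled knockdown, against 746 to 813 CPM in controls, with 3 of 5 tested called lower and 1 higher. The 8 monocyte markers summed to 125 to 132 CPM in libraries labelled knockdown, against 184 to 191 CPM in controls, with 4 of 6 tested called lower. The part of these markers in the HOX values was not tested.

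In THP-1 no HOX gene was called in the fit of that line. Of 16 members tested, 0 were higher and 0 lower by edgeR or by DESeq2, where 6.3% of all 14259 genes were called higher and 3.93% lower. At an unadjusted p under 0.05 there were 5 of 16, 4 higher and 1 lower, against 25.7% of all genes. The median log2 fold change was 0.27, against 0.01 for all genes. The log2 fold changes of the highest members were 0.08 ± 0.12 for HOXA9, 0.15 ± 0.11 for HOXA10 and 0.09 ± 0.09 for HOXA13. HOXA11 had 44.6, 48.3 and 47.3 CPM in the libraries labelled knockdown, against 41.9, 36 and 33.7 CPM in those labelled control (log2 fold change 0.33 ± 0.10, adjusted p = 0.0911). HOXA5 had 2.99, 3.96 and 3.59 CPM with the knockdown label, against 2.36, 2.53 and 2.53 CPM with the control label (log2 fold change 0.51 ± 0.17, adjusted p = 0.102). Both genes had arms that did not overlap and missed the threshold. Labelled-knockdown replicate 2 stood apart from the other two, with a chi-square per degree of freedom of 69.6 and 67.8 against them, while replicates 1 and 3 gave 8.28 and every other pair of replicates 18.3 or less. Without it HOXA11 was called higher. In one fit of all 24 libraries, HOXA7, HOXB2, HOXB5, HOXB7 and HOXB9 were called higher in THP-1 and HOXB3 lower, and limma on log2(FPKM + 1) called HOXA5 higher. The HOXB5 call rests on 12 estimated counts in labelled-knockdown replicate 2 alone, with 0 in every other THP-1 library.

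Traces of HOXB genes appeared in THP-1 libraries labelled knockdown. HOXB2 had 13, 19 and 5 estimated counts in libraries labelled knockdown, against 0 in each control, and HOXB9 had 8, 8 and 26 counts, against 0 in each control. Both were too low to be tested in the fit of that line. HBG1 and HBG2, fetal globin genes abundant in K562, were at 0.322, 0.182 and 0.169 CPM and at 0.397, 0.228 and 0.143 CPM in THP-1 libraries labelled knockdown, against 0 in each control. KDM6A, a demethylase gene, was at 0.446, 0.283 and 0.726 CPM in libraries labelled knockdown, against 0, 0 and 0.052 CPM in controls. Over the 7 erythroid markers the sum was 0.547 to 0.868 CPM in libraries labelled knockdown, against 0 to 0.370 CPM in controls, with HBG1, HBG2 and HBA1 at 0 in controls. Their part in the HOXB counts was not tested.

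Across lines, 29 of 37 members tested in any line were called in at least 1, 18 in at least 2, and 8 in opposite directions in different lines (HOXA4, HOXA5, HOXB4, HOXB8, HOXC4, HOXC8, HOXC10 and HOXC13). Over all 16658 genes tested in any line, 82.4% were called in at least 1, 56.4% in at least 2 and 27.6% in opposite directions. The 8 members were all lower in H1299, on the count scale and not on TPM, and HOXB4 was lower in K562 as well. Of the 14 called higher in A549 and the 7 called higher in K562, 5 were shared (35.7% and 71.4%, against 33.4% and 33.9% over all genes), namely HOXA5, HOXB8, HOXB9, HOXB13 and HOXD8. Of the 18 called lower on counts in H1299 and the 6 called lower in K562, 5 were shared (27.8% and 83.3%, against 34.4% and 46.7% over all genes), namely HOXB2, HOXB3, HOXB4, HOXB5 and HOXC9. On log2(TPM + 1), HOXB3 and HOXB4 were not called in H1299. A549 and H1299 shared HOXA13 and HOXD3 among genes called higher, and HOXB7 among genes called lower on counts. No member was called higher in 3 lines.

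In one fit of all 24 libraries, the response to the label differed among lines for 15 of 37 members, against 64.9% of all 16797 genes. DESeq2 gave this call for 23 members, limma for 24 on log2(FPKM + 1) and for 28 without a filter. Between A549 and H1299 it differed for 9 members, all more positive in A549 (44.2% of all genes, in either direction). The fit was on counts, the scale on which H1299 fold changes rose with transcript length. The part of length and scale in the differences with H1299 was not tested. HOXB8 differed by 1.12 ± 0.13, HOXB4 by 1.39 ± 0.19 and HOXA5 by 1.60 ± 0.31 (log2, A549 minus H1299, SE). Between A549 and K562 it differed for 9 (34.6% of all genes), with HOXB2, HOXB3, HOXB4 and HOXB6 more positive in A549 and HOXA4, HOXA10, HOXA11, HOXB7 and HOXB13 more positive in K562. Between H1299 and K562 it differed for 15 (47.8% of all genes, in either direction), 13 of them more negative in H1299. Among the 15, HOXA9, HOXA10 and HOXD9 were too low to be tested in the fit of K562 alone. They had 0 counts in each K562 control and at most 6, 13 and 4 counts in a K562 library labelled knockdown. HOXA4 and HOXA10 are in both lists with K562, and HOXA4 had at most 4 counts in a K562 control. HOXB2, HOXB3 and HOXB4 gave no call between H1299 and K562, with differences of -0.16 ± 0.15, -0.05 ± 0.09 and -0.20 ± 0.17 (log2, H1299 minus K562, SE). Averaged over the 4 lines, 15 of 37 members were called, 11 higher and 4 lower, where 28.9% of all genes were called higher and 21.2% lower. The average is not defined for members at 0 in a line. Among the 12 members tested in each line it was called for 9, among them HOXA4, HOXA5, HOXA6, HOXA11, HOXB13 and HOXC10 higher and HOXB3 and HOXB6 lower. An average need not be a change shared by the lines. HOXA4 changed by 4.38 in K562 and -0.30 in H1299, and HOXA11 by 1.97 in K562 and -0.25 in A549. HOXB13 changed by 2.83 in K562 and -0.32 in THP-1, and HOXB6 by -1.08 in K562 and 0.09 in H1299. The response also differed among lines for HOXA4, HOXA5, HOXA11, HOXB3, HOXB6 and HOXB13, and not past the threshold for HOXA6 and HOXC10.

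For HOXA3, HOXB3, HOXC4, HOXC6 and HOXD8, which have more than 1 listed transcript, the share of each transcript in the gene's TPM was compared between the labels in each line where the gene was measured, and the 2 arms overlapped for every share compared.

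Genes that work with the HOX proteins were called in both directions. On counts, of 10 TALE cofactor genes tested in each line, 3 were called higher and 3 lower in A549, 1 and 5 in H1299, 1 and 6 in K562, and 0 and 0 in THP-1. Over all genes tested on counts, 27.2% were called higher and 28.4% lower in A549, and 33.4% and 35.5% in H1299. In K562 the shares were 28.9% and 27.5%, and in THP-1 they were 6.3% and 3.93%. Of 19 genes of the MLL, menin and DOT1L group, which keep HOX genes active, 3 were higher and 9 lower in A549, 10 and 4 in H1299, 3 and 7 in K562, and 1 and 0 in THP-1. KMT2A, the gene of MLL itself, changed by 1.81 ± 0.03 in H1299 and -0.33 ± 0.07 in K562 (log2). In H1299 the fold change of genes rose with transcript length, to a median of 0.67 in the longest of the 5 length groups. The part of length in the H1299 values of KMT2A and the MLL group was not tested. On log2(TPM + 1) in H1299 the TALE genes had 7 calls higher and 2 lower, the opposite balance, and the MLL group had 16 higher and 1 lower. Over all genes on that scale in H1299, 61.8% were called higher and 18.1% lower. Of the genes that flank the clusters, 3 of 15 tested were higher and 5 lower in A549, 3 and 5 of 14 in H1299, 4 and 3 of 12 in K562, and 0 and 0 of 13 in THP-1, and on log2(TPM + 1) in H1299 they had 9 calls higher and 1 lower. Among homeobox genes related to the HOX class outside the clusters, 3 of 6 tested were higher in A549 (CDX2, EN1 and EN2), 3 of 5 were lower in H1299 (EN1, EN2 and GBX2), 2 of 3 were higher in K562 (EN1 and MNX1) and 1 of 4 was higher in THP-1 (MEOX2), with none called the other way on counts. The non-coding RNAs of the clusters were not analysed here.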

How the data were processed

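RNA was sequenced from 24 libraries, 3 labelled CBX7 knock-down and 3 labelled control in each of 4 lines. Per the labels' protocols the kit was a stranded total RNA kit read in pairs, and per the submitters' processing notes HISAT2 and StringTie were used with hg19. The authors deposited estimated counts per gene and per transcript, which had been made whole numbers, FPKM per gene and per transcript, and TPM per transcript. FPKM is per total count, while the deposited TPM rescales each library to a fixed sum. The gene counts equalled the sum of their transcripts' counts for all 19475 genes. Gene TPM was summed here from transcripts.

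Counts were fitted within each line with edgeR 4.0.16 (R 4.3.3; filterByExpr, TMM, robust quasi-likelihood F test, Benjamini-Hochberg over all genes tested, called at adjusted p under 0.05). One fit of all 24 libraries gave the average and the difference in response, and one of the 12 controls the baseline. Alternatives were DESeq2 1.42.0, limma 3.58.1 on log2(FPKM + 1), log2(FPKM + 0.1) and log2(TPM + 1), other filters, counts divided by 4 (low deposited counts heap at multiples of 4 and the number above, so a count may not be a single read pair), a replicate block and leaving out each library. The fit on log2(TPM + 1), a fit of A549 labelled-knockdown replicate 1 alone, which takes its spread from the controls, and the average over members tested in each line were added after the data were seen. The steps were tested on simulated data.

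The members and lists were chosen with earlier results of these data known. Per-library values are given for members called in a line with separate groups and at least 1 CPM in the higher group, and, as levels, for the 3 highest members in each line's controls. The 24 pairs of replicates differed by more than sampling noise (chi-square per degree of freedom from 8.28 to 69.6 on counts divided by 4). Deviations of same-numbered libraries did not correlate (-0.045 to 0.040), so no pairing by number was seen. With 3 libraries in each group this cannot show that none exists. Promoters were read from RefSeq tables of GRCh38.p14 and lengths from GENCODE, which matched over 98% of tested genes; no coordinates were converted between builds. Of 20 non-coding RNAs of the clusters looked for by name, 0 were in the table. Results of some genes are not reported here.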

Additional observations from a re-analysis of the deposited data

Results flagged for a closer look

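The response to the label differed among the 4 lines for 15 members, by the test of the difference itself in one fit of all 24 libraries (edgeR quasi-likelihood F test, Benjamini-Hochberg over all genes), where 64.9% of all genes gave such a call. In HOXB the adjusted p was 7.88e-08 for HOXB2, 0.000446 for HOXB3, 1.39e-05 for HOXB4, 0.00743 for HOXB5, 7.12e-07 for HOXB6, 9.97e-05 for HOXB7, 6.81e-07 for HOXB8, 0.000127 for HOXB9 and 2.06e-06 for HOXB13. All 9 HOXB members tested were thus among the 15, though HOXB5 gave no call between any pair of A549, H1299 and K562. In HOXA it was 0.0267 for HOXA3, 6.66e-06 for HOXA4, 0.000233 for HOXA5, 0.00693 for HOXA10 and 0.00271 for HOXA11. In HOXC it was 0.0259 for HOXC13. HOXB8 was called higher in A549 and K562 and lower in H1299. HOXB6 was called lower in K562 and was not called in the other 3 lines. HOXB13 rose in K562, where controls were under 1 CPM, and in A549. For HOXB2, HOXB5, HOXB8, HOXB9 and HOXC13 the difference includes THP-1, where their controls were at or near 0. For HOXA4 and HOXA10 it includes K562, where HOXA4 had at most 4 counts in a control and HOXA10 had 0. Apart from THP-1, HOXB2 still differed between A549 and H1299 by 1.08 ± 0.16 and between A549 and K562 by 0.92 ± 0.16 (log2, SE). For HOXB5 the THP-1 libraries held 12 estimated counts in labelled-knockdown replicate 2 and 0 in every other.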

How the results depend on the processing

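Where all 24 libraries were put in one fit, 6 members were called higher in A549, 9 lower in H1299, 3 lower in K562, and 5 higher and 1 lower in THP-1. In H1299, limma on log2(TPM + 1) called 14 members higher and 3 lower, limma on log2(FPKM + 1) with no filter called 8 higher, and requiring 1 CPM in 3 libraries left 2 higher. On log2(TPM + 1) the H1299 change was reversed to 0.14 for HOXA4, 0.21 for HOXA9, 0.061 for HOXB3, 0.078 for HOXC5, 0.091 for HOXC8, 0.29 for HOXC10 and 0.054 for HOXD9; the median of all genes was 0.38 on that scale. In K562, limma on log2(FPKM + 1) and on log2(FPKM + 0.1) called 3 members higher, since 5 of the 7 were under the filter of 1 FPKM and not tested, and in THP-1 both called 1 (HOXA5). The average over lines was called for 9 members among those tested in each line. The difference in response among lines was called for 23 members by DESeq2, 24 by limma on log2(FPKM + 1), 28 without a filter and 24 on log2(TPM + 1). For the other changes the cause was not tested. The other settings kept each count within 1.5 times that reported.

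Leaving out one library at a time gave 9 to 14 members higher and 1 to 2 lower in A549, 2 to 4 higher and 15 to 17 lower in H1299, 6 to 7 higher and 5 to 6 lower in K562, and 0 to 1 higher and 0 lower in THP-1. The average was called for 13 to 15 members, the difference in response for 14 to 18 and the baseline difference for 37 each time. Without A549 labelled-knockdown replicate 1, 2 members were lower, HOXB6 being added. Without H1299 labelled-knockdown replicate 1, or replicate 3, 2 were higher, and HOXA6 was among those that lost their call. Without THP-1 labelled-knockdown replicate 2, 1 was higher, HOXA11.

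With the replicate number as a block, though no pairing by number was seen, 13 members were higher and 1 lower in A549, 4 and 18 in H1299, 8 and 6 in K562, and 0 and 0 in THP-1. Low counts limit the HOXD genes and, in K562 and THP-1, most members outside the used clusters.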
